A study of Homo sapiens and Mus musculus with 74 samples.

Results

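Kidney RNA-seq of mice without Rpl41 was compared with that of wild-type (WT) mice. The comparison rests on the 6 kidney RNA-seq samples of the series, 3 WT and 3 knockout (KO), chosen by their titles out of 74 samples in all. The mice were 10-week-old males. KO mice came from C57BL/6J zygotes electroporated with a Cas9 ribonucleoprotein and lack the whole coding sequence of Rpl41 in every cell. Polyadenylated RNA was selected from kidney lysates and sequenced with a strand-marking kit. The labels give replicate numbers but do not say that each number is a separate animal, so p-values measure the spread between these samples, which may in part be technical.

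Ribosomes read mRNA and join amino acids into protein, and Rpl41 is a very small, strongly basic ribosomal protein that is named for the large subunit, is now counted with the small subunit, and forms a bridge where they meet. The kidney filters blood in glomeruli, where podocytes and endothelium form the filter and smooth muscle and renin cells control the inflow, and then recovers solutes along a tubule of segments with their own transporters. Proximal tubule cells make up most of the tissue and burn fatty acids in many mitochondria. RNA levels in whole kidney depend on which cells are present and on what each makes: in bulk tissue, fewer cells of a type and less RNA per cell cannot be told apart.

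Mouse Rpl41 (ENSMUSG00000093674) occupies positions 128548114 to 128549305 of chromosome 10, minus strand, in GENCODE M21 on GRCm38. Its 25-residue form is read from 3 coding exons, from 128548949 to 128548960, from 128548658 to 128548680 and from 128548390 to 128548429, with the stop codon at 128548387 to 128548389. Its coding sequence is shown because it is the stretch that KO mice lack. It has 78 bases with the stop codon, and the capitals mark its 17 codons for the basic residues lysine and arginine.
Rpl41: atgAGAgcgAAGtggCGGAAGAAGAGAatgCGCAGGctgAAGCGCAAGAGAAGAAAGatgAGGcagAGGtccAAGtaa

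Rpl41 RNA was counted in every sample first, since it checks the labels. Counts were taken on the transcript of its longest annotated protein, of 46 residues, and not on that of the 25-residue form shown. They were 5721, 7502 and 3695 in WT replicates 1, 2 and 3 and 3, 3 and 8 in KO replicates 1, 2 and 3. All KO libraries lay far below all WT libraries, as the labels say. The level was 307 ± 79.0 CPM (SD, n = 3; CPM are counts scaled to a common library size) in WT and 0.273 ± 0.192 CPM (SD, n = 3) in KO. KO lay below WT by a log2 fold change of -10.15, with a standard error of 0.37, and the adjusted p was 2.1e-06 (edgeR quasi-likelihood test, Benjamini-Hochberg adjustment over all genes tested). KO replicates 1 and 2 lay at the floor of 3 counts, so the exact size of this fall is uncertain.

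The 6 libraries held 16051295 to 20425708 counts when each gene was counted on the transcript that encodes its longest protein. KO replicate 1 and KO replicates 2 and 3 did not depart from WT to the same degree. Per gene, the deviation of log2 CPM from the WT mean had a standard deviation over 13906 genes of 0.37 in KO replicate 1, 0.71 in KO replicate 2 and 0.61 in KO replicate 3. Each WT library, set against the mean of the other WT libraries, gave 0.35 to 0.49. A deviation larger than 1 on the log2 scale was seen for 2.25% of genes in KO replicate 1 and for 11.4% and 8.42% in KO replicates 2 and 3. In WT libraries, each against the other WT libraries, it was seen for 2.32% to 5.11%. A mean of fewer libraries is noisier, which by itself widens the WT values somewhat. By these measures KO replicate 1 lay about as near to the WT mean as a WT library, and KO replicates 2 and 3 stood apart.

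**Figure D1:**
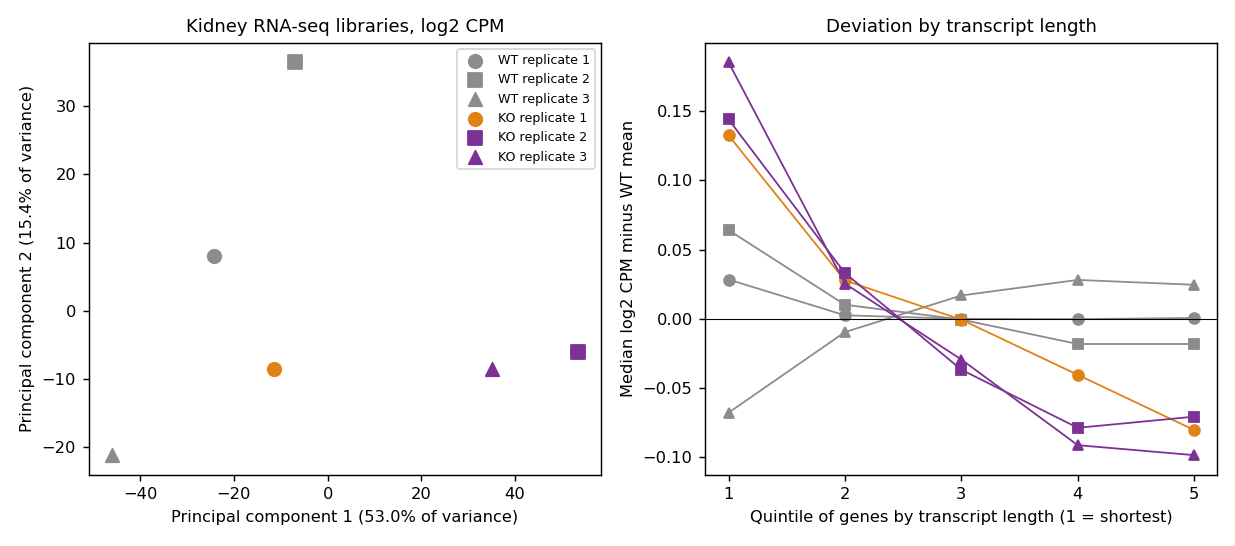
Left, the 6 kidney RNA-seq libraries on the first principal components of log2 CPM over 13906 genes (points are libraries, axes in component units); KO replicates 2 and 3 lie at 53.4 and 35.2 on component 1 and the other 4 libraries between -46.0 and -6.93. Right, the median over genes of log2 CPM minus the WT mean (y) in each quintile of genes by transcript length (x), 1 line per library; the 3 KO libraries lie above the WT libraries for the shortest transcripts and below them for the longest.

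The departures of the KO libraries were also set against each other. Pearson's r of the per-gene deviations, across genes that are not independent replicates and share 1 WT mean, was 0.69 between KO replicates 2 and 3, 0.37 between 1 and 2 and 0.43 between 1 and 3. A shared WT mean gives a positive r by itself, and these values are a description. Where KO replicates 2 and 3 both lay above all WT libraries, at 3364 genes, KO replicate 1 did so too at 1446, lay within the WT range at 1623 and lay below it at 295. Over all 13906 genes KO replicate 1 lay above all WT libraries at 3047 (21.9%) and below them at 2973 (21.4%). Where they both lay below, at 3384 genes, KO replicate 1 did so too at 1462 and lay within the range at 1661. Mitochondrial rRNA took 1.76% and 1.67% of counts in KO replicates 2 and 3, against 0.75% in KO replicate 1 and 0.44% to 0.96% in WT. Malat1, a nuclear RNA, took 0.253% and 0.246% against 0.104% and 0.0457% to 0.157%. The part of these library differences in the results was not tested.

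Transcript length moved with genotype in all 3 KO libraries. In the quintile of genes with the shortest transcripts, up to 1652 bases, the median deviation from the WT mean was 0.13, 0.14 and 0.19 in KO replicates 1, 2 and 3, against -0.07 to 0.06 in WT libraries, each of which is part of the WT mean here and in the medians of gene lists below. In the quintile above 4858 bases it was -0.08, -0.07 and -0.10, against -0.02 to 0.02. All KO libraries lay above all WT libraries at 21.1% of the shortest quintile and 5.14% of the longest, and below at 4.46% and 17.2%. GC content showed no such order: the KO medians over its quintiles ranged from -0.05 to 0.04. Transcript lengths are given below beside several lists, and their part in them was not tested.

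Of 13906 genes tested, 0 were called higher and 1, Rpl41, was called lower in KO at an adjusted p under 0.05 (edgeR, 0.00719% of genes called). An unadjusted p under 0.05 was found for 2517 genes, 1347 higher and 1170 lower. The next smallest adjusted p was 0.15, for Sema3g, a gene for a secreted semaphorin made by vessels, chosen here after its values were seen. Its CPM was 46.2, 56.7 and 62.7 in WT and 26.6, 25.0 and 22.7 in KO (log2 fold change -1.15, standard error 0.15). With library totals in place of TMM the unadjusted split was 933 higher and 1652 lower, and the median log2 fold change of all genes was -0.08 in place of -0.01. Among the fits that left out 1 library, the number of calls differed most without KO replicate 1. Without KO replicate 1 the same test called 850 genes higher and 726 lower, and this fit assumes that KO replicates 2 and 3 alone stand for the genotype. On all 6 libraries DESeq2 called 205 of the 13906 genes higher and 135 lower. With limma voom and sample quality weights, which let libraries differ in spread, these were 1383 and 1270. By either test, as by unadjusted p, these numbers over all genes are the background for counts of list members below. The genes below other than Rpl41 did not pass the edgeR test, and their values are given as measurements with that limit. The gene lists below were chosen with earlier results of these data known. Counts of their members beside the shares of all genes are therefore descriptions and no independent support.

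All KO libraries lay above all WT libraries at 1446 genes (10.4% of genes tested) and below at 1462 (10.5%). Among those with a mean of at least 10 CPM, the genes furthest below WT after Rpl41 were Gm49369, Cd24a, Ces1g, Anxa11, Ren1, Lamp2, Clstn1, Rnase4 and Tcf21, with log2 fold changes from -1.66 to -1.21. Each had an adjusted p of 0.22 (edgeR with Benjamini-Hochberg adjustment). Ren1 encodes renin, the enzyme that starts the cascade for blood pressure control, and had 54.0, 97.5 and 82.2 CPM in WT and 41.1, 26.4 and 20.2 CPM in KO. Tcf21, a transcription factor of podocytes and kidney stroma, had 14.2, 15.0 and 20.4 CPM in WT and 11.4, 4.69 and 5.19 CPM in KO. KO replicate 1 was the KO library nearest to WT for both.

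Ces1g, a carboxylesterase of lipid metabolism, was the exception in that KO replicate 1 was the lowest. It had 32.6, 76.5 and 50.8 CPM in WT and 9.95, 28.0 and 17.3 CPM in KO (log2 fold change -1.54, standard error 0.38). With the replicate number as a block, Ces1g passed the test at an adjusted p of 0.0074 (edgeR), while nothing in the labels says that the numbers pair animals. Anxa11, an annexin, and Rnase4, a secreted ribonuclease, were also low in all 3 KO libraries, with 6.42, 5.88 and 4.14 CPM and 10.0, 11.8 and 6.55 CPM, against at least 8.78 and 13.8 CPM in WT.

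For 3 of these genes the size depended on the transcript that was counted. On the chosen transcript Cd24a, a surface glycoprotein, had a log2 fold change of -1.58, Lamp2, a lysosomal membrane protein, -1.35, and Clstn1, a cadherin-like membrane protein, -1.34. Summed over all transcripts of each gene they were -0.52, -0.47 and -0.40. In KO replicate 1 these genes were near WT, with deviations of -0.47, -0.52 and -0.44 from the WT mean, against -1.68 or lower in KO replicates 2 and 3. Gm49369, a predicted gene, behaved likewise across libraries, with 130, 121 and 211 CPM in WT and 96.4, 17.6 and 31.6 CPM in KO, and its summed value was -1.48.

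The genes furthest above WT were Prkag3, Taf1d, Smim22, Atp5l, Ndufb4, Cand2, Cyp2j9, Mt2, Klf9 and Maml2, with log2 fold changes from 1.83 to 1.08 and an adjusted p of 0.22 each (edgeR). Prkag3, a regulatory subunit of the energy sensor AMPK, had 5.90, 11.7 and 12.4 CPM in WT and 12.5, 45.0 and 49.8 CPM in KO, so that KO replicate 1 was barely outside the WT range. Klf9, a transcription factor induced by glucocorticoids, had 323, 357 and 279 CPM in WT and 418, 788 and 833 CPM in KO. Cyp2j9, a cytochrome P450, had 12.1, 14.1 and 16.8 CPM in WT and 23.9, 41.5 and 30.5 CPM in KO. Mt2, a metal-binding metallothionein, had 27.7, 66.8 and 40.2 CPM in WT and 79.7, 119 and 98.4 CPM in KO. For these last genes all KO libraries were clear of WT, KO replicate 1 included.

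Podocyte markers had medians below every WT library in all 3 KO libraries, KO replicate 1 included. Of 10 markers, all tested, 10 had a negative fold change, and 6 had all KO libraries below all WT libraries, against 10.5% of all genes. By edgeR 0 passed the adjusted test and 7 had an unadjusted p under 0.05, while DESeq2 called 3 and limma voom with quality weights 6. Their median log2 fold change was -0.62, beside -0.01 over all genes tested. Nphs1 encodes nephrin, a protein of the slit diaphragm through which the filtrate passes. Nphs1 had 13.8, 14.3 and 15.4 CPM in WT and 6.96, 7.30 and 6.05 CPM in KO (log2 fold change -1.10, standard error 0.18, adjusted p = 0.22 by edgeR). KO replicate 1 lay with the other KO libraries for Nphs1. The median over the 10 markers, per library, was -0.02, 0.12 and -0.02 in WT and -0.53, -0.51 and -0.88 in KO.

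Markers of vascular smooth muscle and renin cells lay below WT in the same manner. Of 8 markers, all tested, 8 had a negative fold change, with a median log2 fold change of -0.76. All KO libraries lay below all WT libraries for 6, against 10.5% of all genes. By edgeR 0 were called and 6 had an unadjusted p under 0.05, while DESeq2 called 4 and limma voom 5. The median per library was -0.09, 0.24 and -0.17 in WT and -0.67, -0.78 and -0.80 in KO. Acta2, smooth muscle actin, had 58.9, 59.0 and 41.6 CPM in WT and 28.4, 31.6 and 28.6 CPM in KO (log2 fold change -0.85, standard error 0.16). Myh11, smooth muscle myosin, had 29.7, 33.3 and 22.7 CPM in WT and 10.9, 15.7 and 17.0 CPM in KO (log2 fold change -0.98, standard error 0.21). Renin, described above, was the member furthest below WT. KO replicate 1 was no nearer to WT than the other KO libraries for Acta2 and Myh11.

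Endothelial markers were less uniform. Of 10 markers, 6 had all KO libraries below all WT libraries, against 10.5% of all genes. A positive fold change was seen for 2, and the median log2 fold change was -0.49. By edgeR 0 were called and 6 had an unadjusted p under 0.05, while DESeq2 called 3 and limma voom 5. The median per library was -0.27 in KO replicate 1, -0.59 in KO replicate 2 and -0.51 in KO replicate 3, against -0.16 to 0.10 in WT. Tek, the receptor for angiopoietins, had 43.9, 48.2 and 50.3 CPM in WT and 32.4, 25.9 and 31.7 CPM in KO (log2 fold change -0.66, standard error 0.14). Pecam1, an adhesion protein between endothelial cells, had 11.0, 9.54 and 22.7 CPM in WT and 8.09, 0.593 and 2.35 CPM in KO on the chosen transcript, a log2 fold change of -1.94. Over all its transcripts the value was -0.65, nearer to that of Tek.

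Fibroblast markers and matrix genes leaned the same way with more overlap. Of 8 fibroblast markers, 2 had all KO libraries below WT, where 10.5% of all genes did. The median log2 fold change was -0.70, while KO replicates 1 and 3, at -0.34 and -0.32, lay within the WT range of -0.43 to 0.22. By limma voom with quality weights the fibroblast median was -0.32. Pdgfra, the receptor that marks stromal cells, had 33.5, 47.1 and 41.2 CPM in WT and 31.6, 23.0 and 22.1 CPM in KO. Col1a1, the main collagen of scars, had 28.6, 47.4 and 51.7 CPM in WT and 34.2, 32.9 and 36.0 CPM in KO, and the groups overlapped. Among 21 matrix genes, 7 had all KO libraries below WT and 0 above, with a median of -0.34. The share below was 10.5% of all genes and 17.2% of the longest quintile. By edgeR 10 matrix genes had an unadjusted p under 0.05 and 0 were called. DESeq2 called 2 and limma voom 4, and the median by limma voom was -0.20. Col4a1, a chain of basement membrane collagen, had 157, 219 and 188 CPM in WT and 156, 137 and 153 CPM in KO. Nid1, a linker of basement membranes, had 36.2, 42.9 and 67.5 CPM in WT and 33.3, 18.0 and 20.8 CPM in KO. Transcripts of the matrix genes were long, with a median of 6450 bases.

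**Figure D2:**
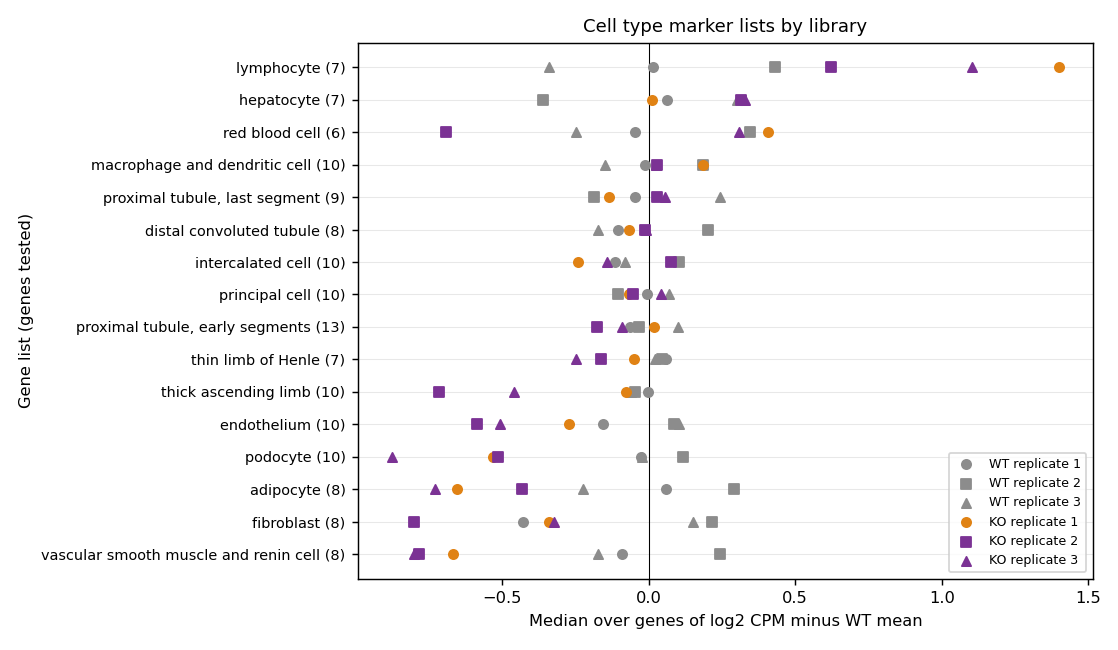
Median over the tested markers of each cell type (y, number tested in brackets) of log2 CPM minus the WT mean (x), 1 point per library, WT in grey, KO replicate 1 in orange and KO replicates 2 and 3 in purple. The 3 KO libraries lie left of the 3 WT libraries for podocytes, smooth muscle and renin cells and endothelium, while the proximal tubule, principal cell and distal convoluted tubule points of both genotypes overlap.

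Tubule markers overlapped between genotypes for most segments. The median log2 fold change was -0.11 over 13 markers of the early proximal tubule, 0.02 over 9 of its last segment, -0.01 over 8 of the distal convoluted tubule, -0.09 over 10 of principal cells and -0.07 over 10 of intercalated cells. Slc5a2, the glucose carrier of the early proximal tubule, had 616, 779 and 619 CPM in WT and 699, 733 and 719 CPM in KO. Slc12a3, the salt carrier of the distal convoluted tubule, had 417, 543 and 392 CPM in WT and 435, 492 and 508 CPM in KO. Aqp2, the water channel of principal cells, had 258, 184 and 219 CPM in WT and 206, 239 and 269 CPM in KO. In the thin limb of Henle, a segment of water and salt exchange, the median over 7 markers was -0.05, -0.16 and -0.25 in KO replicates 1, 2 and 3, below the 0.02 to 0.06 of WT, with 0 genes below all WT libraries and 1 above. The groups overlapped for Slc5a2, Slc12a3 and Aqp2, with a log2 fold change of 0.10 (standard error 0.13), 0.09 (standard error 0.15) and 0.11 (standard error 0.16).

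Some tubule genes nevertheless had all KO libraries on 1 side. Lrp2 and Cubn encode megalin and cubilin, the giant receptors that take up filtered protein. Lrp2 had 1798, 1663 and 1702 CPM in WT and 1402, 1441 and 1303 CPM in KO, and Cubn had 307, 402 and 389 CPM in WT and 299, 235 and 245 CPM in KO. Their log2 fold changes were -0.32 (standard error 0.12) and -0.50 (standard error 0.15), and their transcripts, of 15460 and 11262 bases, are in the longest quintile. Slc22a7, an organic anion transporter of the last segment, lay the other way, with 148, 167 and 206 CPM in WT and 260, 253 and 281 CPM in KO (log2 fold change 0.61, standard error 0.15). KO replicate 1 matched the other KO libraries for Slc22a7 and Lrp2.

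In the thick ascending limb, where salt is reclaimed and uromodulin is made, the median log2 fold change was -0.365 and KO replicate 1 differed from the others. The median over its 10 markers was -0.08 in KO replicate 1 and -0.72 and -0.46 in KO replicates 2 and 3, against -0.06 to 0.00 in WT. Kcnj1, the potassium channel ROMK, had 246, 253 and 239 CPM in WT and 198, 155 and 166 CPM in KO (log2 fold change -0.51, standard error 0.13). Slc12a1, the salt carrier blocked by loop diuretics, had 1077, 850 and 882 CPM in WT and 815, 842 and 767 CPM in KO (log2 fold change -0.21, standard error 0.13). Ppp1r1a, a phosphatase inhibitor, lay above WT, with 236, 233 and 179 CPM in WT and 260, 293 and 283 CPM in KO. The markers of the segment thus did not move together.

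Lymphocyte markers, all at low levels, had medians above every WT library in all 3 KO libraries. Of 9 markers 7 were tested, and 4 of these had all KO libraries above all WT libraries, against 10.4% of all genes, with a median log2 fold change of 0.95. By edgeR 0 were called and 4 had an unadjusted p under 0.05, while DESeq2 called 2 and limma voom 4. The median per library was 0.01, 0.43 and -0.34 in WT and 1.40, 0.62 and 1.10 in KO. Trbc2, a T cell receptor chain, had 0.875, 1.79 and 0.122 CPM in WT and 2.89, 3.74 and 3.09 CPM in KO. Nkg7, a granule protein of cytotoxic cells, had 0.383, 0.817 and 0.488 CPM in WT and 1.76, 0.890 and 1.79 CPM in KO. Nkg7 had 7, 16 and 8 counts in WT and 36, 15 and 29 in KO. Trbc2 had 16, 35 and 2 counts in WT and 59, 63 and 50 in KO. Both passed the low-count filter only through their KO libraries. The B cell markers Cd79a and Ms4a1 did not pass it and were not higher in KO, with 5, 26 and 7 counts in WT and 2, 13 and 6 in KO for Cd79a, and 2, 19 and 1 in WT and 4, 2 and 0 in KO for Ms4a1. The counts and median above therefore cover T cell, cytotoxic cell and immunoglobulin markers and leave out Cd79a and Ms4a1. They are a description and no separate support for a rise of lymphocytes. The summed level of the 7 markers was 20.8 to 29.8 CPM in WT and 31.8 to 49.5 CPM in KO. Of them 85.7% had transcripts in the shortest quintile, where all KO libraries lay above all WT libraries at 21.1% of genes.

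Macrophage and dendritic cell markers did not separate the genotypes, with a median log2 fold change of 0.03 over 10 markers. C1qa, a complement subunit made by macrophages, had 16.6, 19.9 and 14.3 CPM in WT and 19.7, 17.7 and 18.0 CPM in KO. Red cell markers ranged more widely among KO libraries than between genotypes, with Hbb-bs, a globin, at 256, 374 and 254 CPM in WT and 443, 181 and 426 CPM in KO. Of 18 pancreatic acinar markers 3 passed the filter, and the other 15 had at most 4 counts in any library. Of 7 adrenal cortex markers 1 passed and of 7 skeletal muscle markers 3.

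Fat cell markers had a negative median in KO. Of 9 markers 8 were tested, and 4 had all KO libraries below all WT libraries, against 10.5% of all genes. The median log2 fold change was -0.65. By edgeR 0 were called and 4 had an unadjusted p under 0.05, while DESeq2 called 2 and limma voom 4. Adipoq, the hormone adiponectin, had 8.20, 10.8 and 5.43 CPM in WT and 3.43, 4.69 and 3.40 CPM in KO. Retn, the hormone resistin, had 3.72, 5.51 and 3.66 CPM in WT and 2.06, 1.54 and 1.48 CPM in KO. Cidec, a protein of lipid droplets, had 2.08, 2.86 and 2.99 CPM in WT and 1.37, 0.356 and 0.371 CPM in KO, a log2 fold change of -1.87 that was -0.75 over all its transcripts. Cidec had 38, 56 and 49 counts in WT and 28, 6 and 6 in KO, and passed the low-count filter only through its WT libraries. Its part in the counts and median above is therefore no separate support for a fall. The summed level of the 8 markers was 146 to 243 CPM in WT and 165 to 181 CPM in KO and overlapped. How much fat was taken with each kidney is not given in the sources used here.

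Ribosomal protein genes, the family of Rpl41, had mostly positive fold changes that were small in KO replicate 1. For the large subunit, 39 of 46 genes had a positive fold change and 5 had all KO libraries above all WT libraries, with a median log2 fold change of 0.38. These 5 are near the 10.4% of all genes and under the 21.1% of the shortest quintile, which holds 89.1% of these genes. For the small subunit, 30 of 33 tested genes had a positive fold change and 7 had all KO libraries above, near the share of the shortest quintile, which holds 87.9% of them, with a median of 0.52. Rpl41 itself is in neither count. By edgeR 0 genes of either subunit were called, and 16 and 20 had an unadjusted p under 0.05, while DESeq2 called 5 and 4 and limma voom 18 and 19. The median over the large subunit was 0.06, 0.25 and -0.29 in WT and 0.14, 0.56 and 0.47 in KO, and over the small subunit 0.06, 0.26 and -0.32 in WT and 0.14, 0.74 and 0.66 in KO. KO replicate 1 thus lay within the WT range for both subunits, and the WT libraries differed among themselves by more than KO replicate 1 differed from them.

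Among single ribosomal genes, Rps14, Rplp1 and Rpl38 had KO replicate 1 just above the highest WT library. Rps14 had 250, 315 and 183 CPM in WT and 324, 613 and 483 CPM in KO (log2 fold change 0.93, standard error 0.25, adjusted p = 0.22 by edgeR). Rplp1, a protein of the stalk that recruits elongation factors, had 500, 613 and 398 CPM in WT and 638, 863 and 871 CPM in KO (log2 fold change 0.65, standard error 0.19). Rpl38 had 10.9, 11.9 and 12.0 CPM in WT and 13.7, 21.7 and 27.5 CPM in KO (log2 fold change 0.85, standard error 0.24). Rpl3, the first gene of the list, had 63.6, 69.6 and 60.6 CPM in WT and 66.5, 49.1 and 53.4 CPM in KO, and overlapped. Many ribosomal protein genes have processed pseudogenes, and the alignment allowed reads that map to several places, so counts on them are less certain than on other genes.

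Translation factors and ribosome quality control genes, which free and recycle stalled ribosomes, lay near 0, with medians of 0.05 over 25 genes and 0.07 over 18. Eif5, which triggers start codon choice, had 309, 334 and 272 CPM in WT and 358, 620 and 574 CPM in KO (log2 fold change 0.76, standard error 0.20). Eif4g1, the scaffold of the cap-binding complex, had 224, 221 and 274 CPM in WT and 204, 182 and 190 CPM in KO (log2 fold change -0.32, standard error 0.13). Zfp598, the ubiquitin ligase that senses collided ribosomes, had 43.8, 54.9 and 44.7 CPM in WT and 44.7, 37.7 and 39.6 CPM in KO, and overlapped. Trip4, a subunit of the complex that splits collided ribosomes, had 32.8, 26.6 and 33.8 CPM in WT and 38.6, 44.6 and 41.4 CPM in KO (log2 fold change 0.42, standard error 0.14).

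Nuclear genes of the respiratory chain had medians above every WT library in all 3 KO libraries. Of 36 complex I genes, all tested, 19 had all KO libraries above all WT libraries and 0 lay below. The shares above and below were 10.4% and 10.5% of all genes, and 21.1% and 4.46% of the quintile with the shortest transcripts. The median log2 fold change over complex I was 0.45. By edgeR 0 of the 36 were called and 22 had an unadjusted p under 0.05, while DESeq2 called 8 and limma voom 23. Of 38 genes of complexes II to V, 19 lay above and 0 below, beside the shares just given, with a median of 0.32. By edgeR 20 had an unadjusted p under 0.05 and 0 were called, while DESeq2 called 8 and limma voom 20. The median over complex I was 0.04, 0.21 and -0.23 in WT and 0.23, 0.50 and 0.60 in KO, so KO replicate 1 lay just past the highest WT library. Ndufb4 had 39.1, 47.8 and 25.6 CPM in WT and 49.7, 103 and 103 CPM in KO (log2 fold change 1.18, standard error 0.30), and Ndufb2 had 128, 151 and 97.3 CPM in WT and 156, 262 and 265 CPM in KO (log2 fold change 0.86, standard error 0.23). Uqcr10, a small subunit of complex III, had 377, 409 and 303 CPM in WT and 492, 761 and 742 CPM in KO (log2 fold change 0.87, standard error 0.19), and Atp5l, of the ATP synthase, had 6.67, 7.15 and 4.75 CPM in WT and 7.99, 20.2 and 15.1 CPM in KO.

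These genes are short: 80.6% of complex I genes and 81.6% of those of complexes II to V had transcripts in the shortest quintile. Ndufs1 and Sdha, large core subunits counted on transcripts of 2661 and 2900 bases, overlapped between genotypes. Ndufb2, counted on a transcript of 4371 bases, had all KO libraries above all WT libraries. Ndufs1, the largest subunit of complex I, had 219, 208 and 263 CPM in WT and 223, 211 and 211 CPM in KO, and Sdha, the flavoprotein of complex II, had 628, 639 and 735 CPM in WT and 668, 641 and 627 CPM in KO. The list medians of KO replicates 1, 2 and 3 for complex I, 0.23, 0.50 and 0.60, stood beside 0.13, 0.14 and 0.19 for all genes of the shortest quintile. The 30 genes of the mitochondrial ribosome had 13 above all WT libraries and 0 below, against 10.4% and 10.5% of all genes and 21.1% and 4.46% of the shortest quintile. By edgeR 13 had an unadjusted p under 0.05 and 0 were called, while DESeq2 called 3. Their median was 0.26, with 0.24, 0.25 and 0.31 in the KO libraries, and 56.7% of them were in the shortest quintile. Mrpl20 had 113, 126 and 93.4 CPM in WT and 142, 188 and 204 CPM in KO, and Mrps18a had 67.4, 74.0 and 68.1 CPM in WT and 85.2, 104 and 112 CPM in KO. The 11 tested genes of the mitochondrial genome had a median of -0.01.

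**Figure D3:**
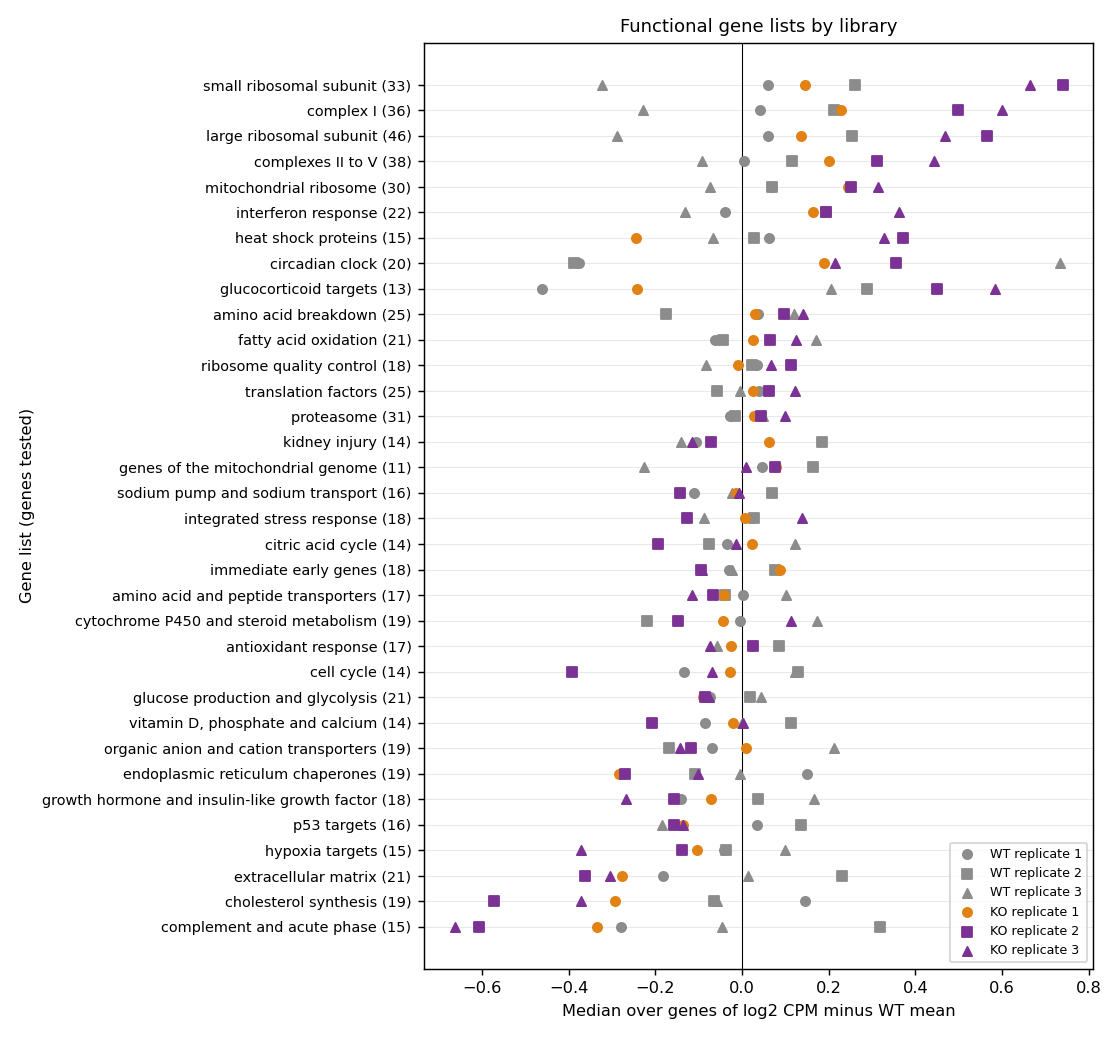
Median over the tested genes of each functional list (y, number tested in brackets) of log2 CPM minus the WT mean (x), 1 point per library, WT in grey, KO replicate 1 in orange and KO replicates 2 and 3 in purple. For complex I, complexes II to V and the mitochondrial ribosome the 3 KO libraries lie right of the 3 WT libraries, for cholesterol synthesis left of them, and for both ribosomal subunits KO replicate 1 lies among the WT libraries.

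Cholesterol synthesis genes had medians below every WT library in all 3 KO libraries. Of 19 genes, all tested, 12 had all KO libraries below all WT libraries, against 10.5% of all genes, 0 lay above, and the median log2 fold change was -0.41. By edgeR 0 were called and 10 had an unadjusted p under 0.05, while DESeq2 called 4 and limma voom 12. The median per library was 0.14, -0.07 and -0.06 in WT and -0.29, -0.57 and -0.37 in KO. Dhcr7, the last enzyme of the pathway, had 6.45, 4.34 and 9.87 CPM in WT and 4.26, 1.42 and 1.48 CPM in KO, with a log2 fold change of -1.50 on the chosen transcript and -0.28 over all its transcripts. Idi1, an early isoprenoid enzyme, had 4.10, 3.52 and 7.07 CPM in WT and 3.19, 0 and 0.865 CPM in KO. Over all transcripts the list median was -0.45.

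Complement and acute phase genes, which kidney cells make at low levels, had a median of -0.57. Of 15 tested, 7 lay below all WT libraries and 0 above, against 10.5% and 10.4% of all genes. By edgeR 0 were called and 7 had an unadjusted p under 0.05, while DESeq2 called 4 and limma voom 5. Fga, a fibrinogen chain, had 9.46, 12.2 and 8.05 CPM in WT and 5.88, 2.49 and 3.46 CPM in KO (log2 fold change -1.32, standard error 0.33). Fgb, another chain, had 2.13, 8.17 and 0.975 CPM in WT and 0.196, 0 and 0.432 CPM in KO, the widest gap of the list at levels too low for a firm size. Fgb had 39, 160 and 16 counts in WT and 4, 0 and 7 in KO, and passed the low-count filter only through its WT libraries. Its part in the counts and median above is therefore no separate support for a fall. C3, the central complement protein, had 13.9, 27.6 and 14.6 CPM in WT and 16.8, 17.8 and 11.2 CPM in KO, and overlapped. Its log2 fold change of -0.29 turned to 0.11 without WT replicate 2.

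Other metabolic lists differed little in their medians, which were -0.06 for the citric acid cycle, 0.07 for fatty acid oxidation, -0.13 for glucose production and glycolysis, -0.11 for cytochrome P450 genes and 0.08 for amino acid breakdown. Members with all KO libraries on 1 side included Hpd, an enzyme of tyrosine breakdown, with 39.0, 26.6 and 36.9 CPM in WT and 48.9, 62.1 and 62.6 CPM in KO (log2 fold change 0.76, standard error 0.18). Cyp27b1, which makes active vitamin D, had 2.79, 6.28 and 4.51 CPM in WT and 8.28, 7.48 and 8.89 CPM in KO (log2 fold change 0.86, standard error 0.30). Abcc4, an exporter of organic anions in the proximal tubule, had 40.5, 49.6 and 46.4 CPM in WT and 25.4, 22.1 and 20.5 CPM in KO (adjusted p = 0.21 by edgeR). In the growth hormone list, Igf1r, the receptor of insulin-like growth factor, had 219, 212 and 179 CPM in WT and 235, 331 and 332 CPM in KO. Igfbp5, which binds the growth factor, had 469, 528 and 453 CPM in WT and 354, 308 and 320 CPM in KO (log2 fold change -0.56, standard error 0.13).

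Stress lists gave small medians. The integrated stress response, which slows translation and induces Atf4 targets, had a median of -0.06 over 18 genes. Atf4, named here outside the rule for named genes, had 105, 97.5 and 79.9 CPM in WT and 107, 138 and 139 CPM in KO (log2 fold change 0.44, standard error 0.16), and Ddit3, the factor CHOP, had 23.8, 25.9 and 16.4 CPM in WT and 26.1, 50.4 and 43.5 CPM in KO (log2 fold change 0.86, standard error 0.25). For both, KO replicate 1 was just above the highest WT library. Asns, a classical Atf4 target, lay the other way, with 5.96, 5.10 and 6.77 CPM in WT and 3.87, 3.56 and 4.45 CPM in KO. The median over 16 p53 targets was -0.21, with 3 below all WT libraries, where 10.5% of all genes lay. Cdkn1a, the cell cycle inhibitor p21, had 15.1, 29.9 and 8.11 CPM in WT and 11.2, 14.8 and 14.9 CPM in KO.

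Heat shock genes split the KO libraries, with a list median of -0.25 in KO replicate 1 and 0.37 and 0.33 in KO replicates 2 and 3, against -0.07 to 0.06 in WT. Hspa1a, the inducible Hsp70, had 32.7, 22.1 and 26.7 CPM in WT and 14.6, 45.8 and 37.9 CPM in KO. Hmox1, which breaks down heme and is induced by oxidative stress, had 34.4, 36.1 and 31.3 CPM in WT and 20.6, 17.9 and 21.1 CPM in KO, with all KO libraries alike (log2 fold change -0.77, standard error 0.14, adjusted p = 0.22 by edgeR). Interferon response genes had 19 of 22 positive fold changes and a median of 0.25, but the genotypes overlapped. The list median was -0.04, 0.19 and -0.13 in WT and 0.16, 0.19 and 0.36 in KO. All KO libraries lay above WT for 3 genes and below for 1, where 10.4% and 10.5% of all genes did. Tap1, the antigen peptide transporter, was among the 3 above. It had 8.04, 9.29 and 7.31 CPM in WT and 13.5, 16.7 and 13.5 CPM in KO (log2 fold change 0.83, standard error 0.19). Havcr1, the tubule injury marker Kim-1, had 2.24, 3.42 and 1.46 CPM in WT and 2.84, 1.96 and 2.59 CPM in KO, and overlapped.

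Median log2 fold changes of further lists were -0.23 for the thin limb of Henle, 0.25 for hepatocyte markers, -0.18 for chaperones of the endoplasmic reticulum, with 4 of 19 below all WT libraries, and -0.28 for hypoxia targets, with 3 of 15 below. They were 0.03 for the proteasome, with 6 of 31 above, -0.11 for antioxidant genes, with 4 of 17 above and 4 below, 0.10 for glucocorticoid targets and -0.08 for immediate early genes. They were 0.02 for kidney injury genes, -0.11 for the cell cycle, -0.02 for sodium transport, -0.15 for vitamin D, phosphate and calcium, -0.16 for organic ion transporters, -0.10 for amino acid and peptide transporters and -0.20 for the growth hormone list. Without WT replicate 3, the median of the organic ion transporters minus that of all genes was 0.06. For the counts above and below WT, the shares were 10.4% and 10.5% of all genes. In the shortest quintile, which held 61.3% of the proteasome and 58.8% of the antioxidant genes, they were 21.1% and 4.46%.

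Clock genes differed among the WT libraries. Arntl, which encodes the clock activator BMAL1, had 19.7, 17.3 and 1.04 CPM in WT replicates 1, 2 and 3 and 4.51, 1.90 and 2.47 CPM in KO. Dbp, an output gene of the clock named here after its values were seen, had 10.8, 15.8 and 164 CPM in WT and 105, 132 and 112 CPM in KO. WT replicate 3 thus lay with the KO libraries and apart from WT replicates 1 and 2 for both genes. Without WT replicate 3 edgeR called 3 genes higher in KO, Dbp with a log2 fold change of 3.13 and an adjusted p of 6.5e-04, Upp2 and Sphk2. The hour at which each kidney was taken is not given in the sources used here.

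The same kidney groups were also measured by Ribo-seq, a count of mRNA fragments covered by ribosomes (footprints), and the RNA response to KO was tested against the footprint response in 1 model of 12 libraries. Of 15613 genes tested, 155 had an RNA response above the footprint response (0.993% of genes called) and 172 had one below it (1.10%) at an adjusted p under 0.05 by edgeR. With library totals in place of TMM these were 84 and 38. Of the 155 genes, 96 had transcripts in the shortest quintile and their median length was 1125 bases. Of the 172 genes, 6 were in that quintile and their median length was 6202 bases, beside 2903 over all genes tested. In the shortest quintile of all genes the footprint fold change had a median of -0.18 and in the longest 0.12, the opposite order to RNA. These counts rested on few libraries: leaving out WT RNA-seq replicate 1, or KO RNA-seq replicate 2 or 3, or replicate 2 or 3 of the WT or KO Ribo-seq libraries, left 0 genes called by edgeR, with 2649 to 3096 at an unadjusted p under 0.05. Without WT RNA-seq replicate 3 it called 2, without WT Ribo-seq replicate 1 43, without KO Ribo-seq replicate 1 95, without WT RNA-seq replicate 2 797 and without KO RNA-seq replicate 1 2028. With counts summed per gene 8 were called, and with DESeq2 1203.

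Complex I genes were among those with the RNA response above the footprint response, 8 of 36, with 0 below, beside 0.993% and 1.10% of all genes. The shortest quintile held 96 of the 155 genes called in this direction and 80.6% of complex I genes, and the part of length was not tested. With counts summed per gene only 8 genes of all lists and others were called, so the counts here hold for the chosen transcripts. The median log2 fold change of complex I genes was 0.45 in RNA and -0.27 in footprints. Of the 30 mitochondrial ribosome genes 6 were called with the RNA response above, with medians of 0.26 and -0.21, and of the 38 genes of complexes II to V 4. Uqcr10 differed by 1.18 (standard error 0.24, adjusted p = 0.042 by edgeR) and Mrpl20 by 1.01 (standard error 0.21, adjusted p = 0.043). In the other direction, where 1.10% of all genes were called, 8 of 21 matrix genes were called, with medians of -0.34 in RNA and 0.53 in footprints. So were 5 of 15 complement and acute phase genes. Nid1 differed by -1.62 (standard error 0.35, adjusted p = 0.046) and Lrp2 by -0.93 (standard error 0.19, adjusted p = 0.042). The median transcript length was 6450 bases for matrix genes, 2587 for complement and acute phase genes and 1324 for the mitochondrial ribosome.

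For podocyte and smooth muscle markers the medians had the same sign in both assays. They were -0.62 and -0.76 in RNA and -0.22 and -0.24 in footprints, where most markers of both lists overlapped between genotypes. By edgeR 0 of 10 and 0 of 8 were called as different between the assays, with 3 and 5 at an unadjusted p under 0.05, where 3299 of all 15613 genes had one. Counts of 0 in lists of this size are near the background. The 7 lymphocyte markers that passed the RNA filter had medians of 0.95 and 0.90. Nkg7 and Trbc2 passed it only through their KO libraries, so the shared sign is no separate support for a rise. Endothelial markers had -0.49 in RNA and 0.39 in footprints, with 2 of 10 called with the RNA response below, beside 1.10% of all genes. Ribosomal protein genes had medians of 0.38 and 0.52 in RNA and -0.10 and -0.07 in footprints. Of them 1 gene, Rplp2, was called with the RNA response above, as were 0.993% of all genes. Acinar markers took 1527 CPM in WT Ribo-seq replicate 1 and 27.5 to 179 CPM in the other Ribo-seq libraries, and Cela1, an elastase, had a footprint fold change of -1.73. Its RNA response minus its footprint response was 1.92 (adjusted p = 0.048 by edgeR) with that library and 1.23 (adjusted p = 0.076) without it.

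**Figure D4:**
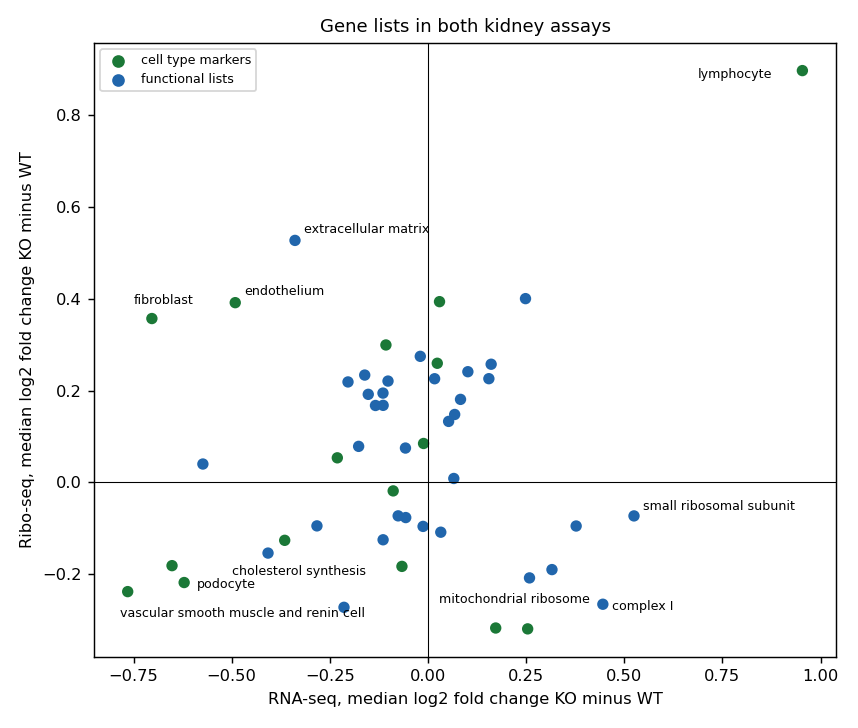
Median log2 fold change, KO minus WT, of each gene list with at least 6 tested genes in RNA-seq (x) and in Ribo-seq (y), 1 point per list, cell type markers in green and functional lists in blue. Podocyte and smooth muscle and renin cell markers are negative on both axes and lymphocyte markers positive on both, while complex I lies at 0.45 and -0.27 and matrix genes at -0.34 and 0.53. Only genes that passed the RNA filter enter, and the lymphocyte markers Nkg7 and Trbc2 passed it only through KO libraries.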

How the data were processed

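The authors selected polyadenylated RNA, prepared strand-marking libraries, trimmed with cutadapt, removed rRNA reads and aligned with STAR to the mouse transcriptome and genome (GRCm38), keeping multimapping reads. Their processing notes also name featureCounts. Whether counting used strand is not given in the sources used here. The deposited values are read counts per transcript without normalization. A further table, whose 28 columns of values could not be assigned, was not used.

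Of 142604 transcripts 141374 matched GENCODE M21, and for each of 22484 coding genes the transcript with the longest protein was taken. Genes kept by filterByExpr were scaled by TMM and tested with edgeR's quasi-likelihood F-test, with Benjamini-Hochberg adjustment over all genes tested (threshold 0.05). Standard errors were taken as log2 fold change divided by the root of F. Library deviations use log2 CPM with a prior count of 2. The RNA response was tested against the Ribo-seq response as the assay by genotype term. The tests were checked on simulated counts.

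Gene lists (53, with 873 genes, of which 824 were tested) and named genes were chosen with earlier results of these data known. The rule for named genes took Rpl41, the 10 highest and 10 lowest genes of at least 10 CPM with groups that do not overlap, and in each list the first tested gene and the 2 largest changes among members whose groups do not overlap, and any called gene. It gave 143 genes, of which the text gives 78, and 6 others are named outside it (Sema3g, Atf4, Dbp, Upp2, Sphk2 and Rplp2), beside the untested Cd79a and Ms4a1. A symbol shared by several gene identifiers stands for the one with the most counts. Alternatives were DESeq2, library totals, other filters, all transcripts, counts summed per gene, a replicate block, limma voom with quality weights, and each library left out. R 4.3.3, edgeR 4.0.16, limma 3.58.1 and DESeq2 1.42.0 were used.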

Additional observations from a re-analysis of the deposited data

How the results depend on the processing

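With 3 libraries a group, the number of calls differed between tests and with the libraries used. Genes of few counts, such as Fgb and Idi1, have no firm size at this depth. Genes called higher or lower in kidney RNA numbered 205 and 135 by DESeq2, 1383 and 1270 by limma voom with quality weights, 0 and 7 over all transcripts (all 7 of Rpl41), and 0 and 2 with no filter beyond 1 count, where Sema3g joined Rpl41. With at least 10 counts in every library 0 were called, since that filter removes Rpl41. Leaving out each library gave 0 to 850 higher and 1 to 726 lower, the highest without KO replicate 1.

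The replicate numbers were used as a replicate block, which called 0 genes higher and 2 lower, Rpl41 and Ces1g. Deviations of same-numbered WT and KO libraries from their group means correlated at -0.02, 0.27 and -0.15 for numbers 1, 2 and 3. Libraries of differing numbers correlated at -0.36 to 0.37, and not every library correlated best with its own number. Deviations within a group of 3 sum to 0, so these values cannot show whether the numbers pair samples.

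For the RNA response against the Ribo-seq response, genes called above and below numbered 592 and 611 by DESeq2, 84 and 38 with library totals, 366 and 284 with at least 10 counts in every library, 4 and 4 with counts summed per gene, and 257 and 290 with a replicate block across assays. Leaving out each of 12 libraries gave 0 to 940 above and 0 to 1088 below.

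Of 1170 values of named genes under alternatives, 14 changed sign. Summed per gene, Slc5a2 had a log2 fold change of -0.020, Slc12a3 -0.0078 and Ndufs1 0.053. Over all transcripts Ndufs1 had 0.029 and Sdha 0.073. Col1a1 had 0.036 by limma voom and Havcr1 -0.015 with library totals. Over the fits that left out 1 library, Ndufs1 ranged from -0.16 to 0.020 and Sdha from -0.079 to 0.032, both positive without WT replicate 3. C3 ranged from -0.46 to 0.11 and Cdkn1a from -0.72 to 0.23, both positive without WT replicate 2. Hspa1a ranged from -0.052, without KO replicate 2, to 0.62. Havcr1 ranged from -0.19 to 0.42, negative without WT replicate 3 and without KO replicate 1. Of 476 list medians minus the median of all genes, 454 moved by less than the spread of the libraries and 22 by more, in the early proximal tubule, adipocyte, skeletal muscle, translation factor, glucose, cytochrome P450, proteasome, immediate early, antioxidant, organic ion, amino acid transporter, sodium transport and mitochondrial ribosome lists. The adipocyte value was -0.64, and -0.32 with at least 10 counts in every library. The cause of these changes was not tested.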
